A study of Mus musculus with 6 samples.

Results

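Glycolytic enzymes of the cochlea, the coiled organ in which sound is turned into nerve signals, were followed through 10 genes: the hexokinases Hk1 and Hk2, the phosphofructokinases Pfkl and Pfkp, the aldolases Aldoa and Aldoc, the phosphoglycerate kinase Pgk1, the enolase Eno2, the pyruvate kinase Pkm and the lactate dehydrogenase subunit Ldhb. A probe set belonged to the group when the array's annotation gave it exactly 1 of these symbols. This rule took 22 of the 22626 probe sets with values, for 10 of the 12393 genes named this way, and 1 further probe set that names Hk1 among several genes stayed out. Each of the 10 genes had at least 1 probe set and 7 had more than 1. The mice were males of the inbred strain DBA/2J, whose hearing fails at a young age, with 3 samples at 7 weeks of age and 3 at 36 weeks, 1 single-colour Affymetrix array per sample. All mice were of the same strain and sex, were raised on the same diet and light cycle, and neither group received an agent or carried an engineered allele, as far as the labels say. The labels do not say how many cochleae made up a sample or whether samples came from separate mice, so the p-values measure the spread between these samples. The comparison addresses age-related hearing loss, with the cochlea of young mice as the reference.

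Glycolysis splits glucose into pyruvate in the cytosol and yields ATP without oxygen. Hexokinase traps glucose as glucose 6-phosphate, phosphofructokinase commits the sugar to breakdown, aldolase cleaves it, and phosphoglycerate kinase and pyruvate kinase make ATP on either side of the enolase step. Lactate dehydrogenase then interconverts pyruvate and lactate. Most steps have several isoenzymes from separate genes that differ by tissue: Aldoc and Eno2 are best known from brain, Hk1 from brain and red blood cells, Pfkp from platelets and brain, Pfkl from liver, Ldhb from heart and oxidative tissue. The term "outside muscle" fits these genes only in part, because Aldoa is also the aldolase of skeletal muscle, Hk2 its insulin-sensitive hexokinase, and Pgk1 and Pkm are made in nearly all cells, muscle included. In the cochlea the stria vascularis, which powers the ion currents of hearing, is a heavy consumer of energy.

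The windows just before the annotated starts of 4 of these genes are shown because they carry the largest rise (Aldoc), another gene that rose (Eno2), the largest fall (Ldhb) and a gene of the fall with 2 copies of the searched letters (Pgk1). Each is the 200 bases before a RefSeq gene start in assembly GRCm38.p6, 5′ to 3′ on the gene's strand, for Aldoc the more upstream of its annotated starts. Capitals mark ACGTG or GCGTG, the core letters of hypoxia-response elements, on either strand (CACGT or CACGC when read on the gene's strand).
Aldoc, chr11:78322873-78323072, plus strand: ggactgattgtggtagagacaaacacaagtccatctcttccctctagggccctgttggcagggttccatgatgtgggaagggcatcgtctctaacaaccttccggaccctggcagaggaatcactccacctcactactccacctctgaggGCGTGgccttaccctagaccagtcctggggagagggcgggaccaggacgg
Eno2, chr6:124769674-124769873, minus strand: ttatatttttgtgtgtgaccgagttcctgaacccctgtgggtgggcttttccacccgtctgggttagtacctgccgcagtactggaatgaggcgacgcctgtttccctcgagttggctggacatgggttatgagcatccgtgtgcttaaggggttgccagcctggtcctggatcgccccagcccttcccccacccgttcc
Pgk1, chrX:106186900-106187099, plus strand: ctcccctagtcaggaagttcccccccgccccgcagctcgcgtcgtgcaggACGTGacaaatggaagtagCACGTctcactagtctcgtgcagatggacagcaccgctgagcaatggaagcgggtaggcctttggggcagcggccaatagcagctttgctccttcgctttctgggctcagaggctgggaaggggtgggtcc
Ldhb, chr6:142507958-142508157, minus strand: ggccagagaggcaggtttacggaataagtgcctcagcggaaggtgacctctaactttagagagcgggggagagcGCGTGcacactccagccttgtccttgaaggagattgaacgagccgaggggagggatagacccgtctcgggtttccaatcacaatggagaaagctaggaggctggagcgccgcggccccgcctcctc
Over the 250 bases before a start, 11 of 15 windows of the 10 genes held at least 1 motif, against 38.6% of 32851 windows of all genes. Overlapping windows of Aldoa held the same ACGTG, 126 and 202 bases before their starts, so this site counts in both. Both motifs also occur inside other motifs, ACGTG inside the E-box CACGTG among them. Aldoc and Ldhb, which moved in opposite directions, each had GCGTG on the gene's strand, 50 and 126 bases before the start. Pgk1 had ACGTG at 150 and, on the other strand, at 131 bases before the start, and Eno2 had neither motif in its window. A match of letters is a description of the window and does not show binding.

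The deposited signals were compared on the log2 scale after 50 was added, and each log2 difference is 36 weeks minus 7 weeks, given ± its standard error (SE), from 3 arrays at each age. The 13575 probe sets with a mean signal above the 40th percentile were tested with limma, and the threshold was a Benjamini-Hochberg adjusted p under 0.05 over all of them. The median signal of an array was between 766.3 and 859.4. Signals are relative, since every array carried the same trimmed mean. In whole-tissue RNA, fewer cells of a type and less RNA per cell cannot be told apart. Of the tested probe sets, 34.4% passed, 16.7% as higher at 36 weeks and 17.7% as lower. Signals of the markers of several cell types and tissues differed widely between the ages. Whether the make-up of the samples differed was not tested. Markers of the cochlear lateral wall fell, 8 of 9 past the test, from a summed signal of 238684 to 245744 at 7 weeks to 61017.8 to 61783 at 36 weeks. Skeletal muscle markers fell (13 of 13, from 340657 to 358615 down to 117565 to 123687). Granulocyte markers rose (10 of 10, from 47495 to 53163 up to 681367 to 725805). Ctsg among them was dim at 7 weeks, at 193.3 to 623.5, and its signals at 36 weeks carried its mean past the filter. Markers of brain neurons rose (7 of 8, from 38009.8 to 41504 up to 73254 to 75705), led by Cbln1, Gabra6 and Neurod1 of cerebellar neurons. Secretory mucosa markers rose (6 of 6, median log2 difference of 4.18, from 101906 to 112321 up to 446168 to 474069), Reg3g 34.6-fold and Tff2 23.1-fold. Ltf, with a mean signal of 10654 at 7 weeks and 134518 at 36 weeks, is in both the mucosa and the granulocyte list. Schwann cell markers fell by the brightest probe set of each gene (5 of 5, from 112064 to 112821 down to 70249.2 to 76693). Dimmer probe sets of Mbp did not share this direction. Past the threshold they had log2 differences of -0.33, 0.57 and 1.01, and the rest did not pass. The dimmer probe sets of Sox10 did not pass, at -0.01 and 0.13. The fall of Sox10 was kept in 2 of the 6 fits with 1 array left out. The lateral wall genes Coch and Otos kept high signals at 36 weeks, 20509.2 to 22225.1 and 13568 to 14041.8, while Kcne1 of the stria vascularis was dim there, at 73.8 to 206.3. No marker on the array was listed at 0.

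Isoenzymes of the same reaction differed in their direction between the ages. Aldoc was 3.32-fold higher at 36 weeks while Aldoa was lower, Eno2 rose while the muscle enolase Eno3 fell, and Pfkp rose while Pfkl fell on its brightest probe set. Ldhb fell on all 4 of its probe sets, by log2 differences between -0.59 and -1.34. By the brightest tested probe set of each gene, Aldoc, Eno2, Pfkp, Pkm and Hk1 were higher, Ldhb, Pgk1, Aldoa and Pfkl were lower, and Hk2 did not pass, beside 35.1% called among all 8555 genes by the same rule. Of the 22 probe sets, 20 were bright enough to be tested. Of these, 6 were higher, 10 were lower and 4 did not pass. The called share has to be read against 34.4% over all tested probe sets, and against 50.5% among the 4941 tested probe sets at least as bright as the dimmest of these 20. The median log2 difference of the 20 was -0.34, beside 0.02 for all tested probe sets, but genes with several probe sets count more than once in it. By the brightest tested probe set of each of the 10 genes the median was 0.13, beside 0.02 for all genes. The signals of the ages did not overlap for 16 of the 20, against 47.8% of all tested probe sets, and for 17 of the 22, against 37% of all probe sets. Neither of these shares was taken among probe sets of like brightness, and several of the 16 belong to the same gene.

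**Figure D1:**
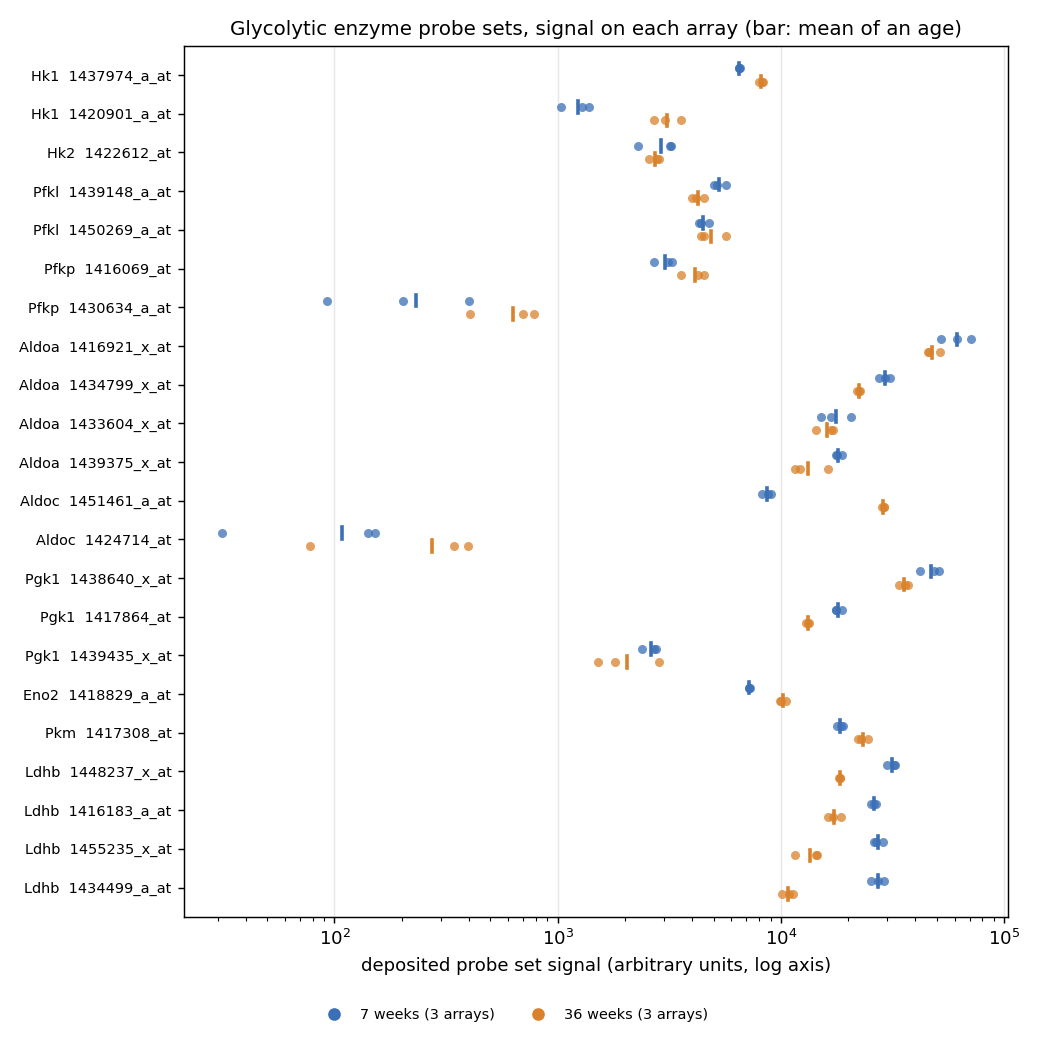
Deposited signal of each of the 22 probe sets (rows) on every array, on a log axis, with blue points for 7 weeks, orange points for 36 weeks and a bar at each age's mean. The blue and orange points lie furthest apart for Aldoc 1451461_a_at (8256 to 9019 against 28341 to 29044) and overlap for Hk2, and the untested probe sets of Pfkp and Aldoc lie at the dim end.

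Of the hexokinases, which catalyse the entry step, Hk1 rose and Hk2 did not pass. Hk1 is the hexokinase best known from brain and red blood cells. Its brighter probe set had signals of 6497, 6518.5 and 6539.6 at 7 weeks and 8310, 8210.7 and 7949.9 at 36 weeks. All 3 older arrays lay above all 3 younger ones. This rise was 1.25-fold, with a log2 difference of 0.32 ± 0.07 (SE) and an adjusted p of 0.00623 by limma. Its dimmer probe set, 1420901_a_at, rose more, from 1030.3, 1279.2 and 1383.2 to 2704.7, 3031.1 and 3558. There the fold was 2.52 and the log2 difference 1.30 ± 0.15 (adjusted p of 8.90e-05 by limma). The intervals of the Hk1 probe sets did not meet, 0.16 to 0.48 for the brighter and 0.96 to 1.63 for the dimmer, so they gave the same direction but not the same size. Hk2, the inducible hexokinase of muscle and fat, had signals of 3216.1, 2281.6 and 3192.1 at 7 weeks and 2779.6, 2569.3 and 2832.9 at 36 weeks. The ages overlapped. The log2 difference was -0.07 ± 0.14 with a 95% interval of -0.38 to 0.24 (adjusted p of 0.738 by limma), so a fall or rise within that interval was not detectable with these arrays.

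Phosphofructokinase is the main control point of the pathway. Pfkp, the platelet isoenzyme, was measured at 3125.4, 3245.8 and 2688.5 at 7 weeks and at 4257.8, 4514 and 3586.2 at 36 weeks. The older arrays were all higher, 1.36-fold in the mean, with a log2 difference of 0.44 ± 0.12 (adjusted p of 0.0159 by limma). Leaving out 1 array kept the direction, but the adjusted p rose above the threshold without replicate 3 of 7 weeks or without replicate 1 or 2 of 36 weeks, to at most 0.0641 by limma. A second Pfkp probe set, 1430634_a_at, was too dim to be tested (92.2, 203.2 and 399.8 against 697.9, 406.1 and 785). Pfkl, the liver isoenzyme, fell from 5184.8, 5687.7 and 5040.1 to 4538.3, 4012.8 and 4183.6 on its brightest probe set. The ages did not overlap, and the log2 difference was -0.32 ± 0.09 (adjusted p of 0.0224 by limma). This call was lost without replicate 2 of 7 weeks or without replicate 2 or 3 of 36 weeks, with an adjusted p of up to 0.0810 by limma. The other Pfkl probe set, 1450269_a_at, is nearly as bright and did not pass, with a log2 difference of 0.11 ± 0.11 (signals of 4755, 4304.3 and 4370.4 against 5700.8, 4505 and 4365). The values of the Pfkl probe sets thus had opposite signs, of which only the fall passed. Platelet markers rose on the same arrays (3 of 4 past the test, Pf4 and Ppbp by 1.30 and 1.59 on the log2 scale, summed signal from 8932.6 to 10048 up to 20572 to 23393). Their part in the Pfkp value was not tested.

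The aldolases differed in direction, and Aldoc had the largest log2 difference of the 20 tested probe sets. Aldoc, aldolase C of brain, had signals of 8255.7, 8710.7 and 9019.3 at 7 weeks and 28341, 28990.6 and 29043.5 at 36 weeks. The older arrays stood in a narrow range far above the younger ones. The mean rose from 8662 ± 384 (SD, n = 3) to 28792 ± 391 (SD, n = 3), a log2 difference of 1.73 ± 0.06 (adjusted p of 2.26e-08 by limma). It stayed between 1.63 and 1.86 over the 15 alternative settings and left-out arrays. A second Aldoc probe set, 1424714_at, was at the dim end (152.4, 141.5 and 31.2 against 77.8, 344.7 and 395.4) and was not tested. Aldoa, the aldolase of muscle and of most other tissues, had 4 probe sets, all of the _x_at kind that can bind related transcripts. The brightest went from 70966.8, 61511.1 and 51961.2 to 51367.4, 45830.8 and 46108.2. The highest older array lay just below the lowest younger one. The log2 difference was -0.35 ± 0.10 (adjusted p of 0.0202 by limma), and the call was lost in 4 of the 6 fits with 1 array left out, those without replicate 1 or 2 of 7 weeks or replicate 2 or 3 of 36 weeks (adjusted p of up to 0.0705 by limma). Probe set 1434799_x_at gave the most repeatable Aldoa value. It fell from 29270, 30834.3 and 27480.9 to 22617.7, 22410.3 and 21825, by a log2 difference of -0.39 ± 0.06 (adjusted p of 0.000954 by limma), in all 6 such fits. Probe set 1439375_x_at fell by 0.46 ± 0.11, a call lost under quantile normalization, where the log2 difference was -0.29 (adjusted p of 0.0942 by limma). Probe set 1433604_x_at differed by -0.12 ± 0.11 and did not pass.

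The rise of Aldoc came with changes in markers of cells known to make it. Aldolase C is abundant in astrocytes and Purkinje cells. Brain neuron markers rose by a median of 1.82 on the log2 scale, the Purkinje cell gene Pcp2 by 1.78 ± 0.10. The 7 tested astrocyte markers did not share a direction: 4 rose, among them Fabp7 by 1.36 ± 0.12, and 2 fell, among them Glul by 1.02 ± 0.09. The rises of Aldh1l1, Gfap and Slc1a3 were each lost in 4 of the 6 fits with 1 array left out, and without replicate 3 of 7 weeks or without replicate 3 of 36 weeks Fabp7 was the 1 that still passed. The fall of Gja1 was lost in 3 of those fits. The summed signal of these markers was 25893 to 29164 at 7 weeks and 23129 to 26132 at 36 weeks. Skeletal muscle markers fell by a median of 1.65 on the log2 scale beside the smaller falls of Aldoa. The part of these cells in the aldolase values was not tested.

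Pgk1, the first ATP-making enzyme of the pathway, fell. Its brightest probe set, of the _x_at kind, had signals of 48317, 50926.9 and 42134.7 at 7 weeks and 37086.8, 36143.1 and 33700.3 at 36 weeks. The log2 difference was -0.40 ± 0.08 (adjusted p of 0.00257 by limma). Probe set 1417864_at, which does not carry that mark, gave a tighter result. It went from 17736.9, 18847.4 and 17661.7 to 12957.9, 13352.6 and 13186.2, 1.37-fold lower, with a log2 difference of -0.46 ± 0.06 (adjusted p of 0.000328 by limma). The older arrays lay below all younger ones on both. The dimmest, 1439435_x_at, had a like log2 difference of -0.39 ± 0.20 but did not pass, its signals of 2838.9, 1508.2 and 1804.5 at 36 weeks overlapping with 2767.1, 2398.2 and 2695.8 at 7 weeks. Without replicate 1 of 36 weeks it passed, with -0.65 and an adjusted p of 0.00768 by limma.

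Eno2 and Pkm, the enzymes of the last steps to pyruvate, rose. Eno2, the enolase of neurons and neuroendocrine cells, had nearly equal signals at 7 weeks, 7174, 7178.6 and 7261.8, and 10554.2, 9896.5 and 10052.6 at 36 weeks. This was a 1.41-fold rise with a log2 difference of 0.49 ± 0.07 (adjusted p of 0.000381 by limma). Pkm went from 17929.5, 19024 and 18514.7 to 22197.7, 22938 and 24551.7, a 1.26-fold rise with a log2 difference of 0.33 ± 0.07 (adjusted p of 0.00306 by limma). Every older array was above every younger one for both genes, and neither call was lost when 1 array was left out. Pkm makes the M1 and M2 forms of pyruvate kinase by alternative splicing, and its single probe set was not matched to either form here. Of 9 tested peripheral neuron markers 7 rose and 1, Nefh, fell, with a median of 0.98 on the log2 scale. Anterior pituitary markers, of cells that are neuroendocrine, rose too (4 of 4, Gh by 4.06 ± 0.08). The part of these cells in the Eno2 value was not tested.

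Ldhb, the subunit of lactate dehydrogenase that favours turning lactate into pyruvate, fell on every probe set. On the brightest, the signals were 32320.1, 32134.2 and 29957 at 7 weeks and 18453.1, 18442.5 and 18223.5 at 36 weeks. They fell 1.71-fold, with a log2 difference of -0.77 ± 0.06 (adjusted p of 5.19e-06 by limma). Probe set 1434499_a_at fell the most, from 27349.7, 29052.2 and 25376.1 to 10856.4, 10068.5 and 11274.3. There the fall was 2.54-fold and the log2 difference -1.34 ± 0.07 (adjusted p of 4.09e-07 by limma). The log2 differences of the remaining 2 were -1.01 ± 0.09 and -0.59 ± 0.07. No probe set of Ldhb had ages that overlapped or lost its call in any of the 6 fits with 1 array left out. The 95% intervals of the largest and the smallest fall, -1.51 to -1.17 and -0.74 to -0.44, did not meet, so the size of the fall differed between probe sets. Markers of the lateral wall and of skeletal muscle fell on the same arrays by medians of 1.93 and 1.65 on the log2 scale. Their part in the Ldhb value was not tested.

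**Figure D2:**
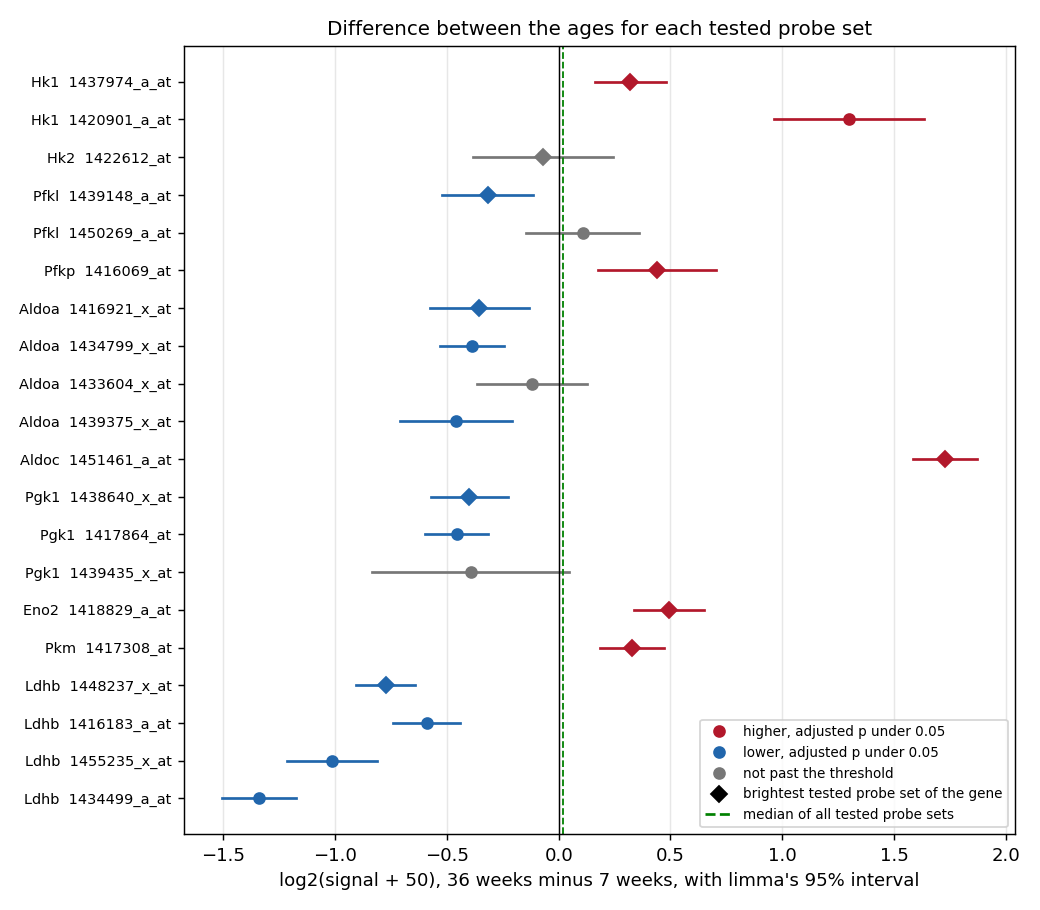
Log2 difference (36 weeks minus 7 weeks, after adding 50) of each tested probe set with its 95% interval from limma; red points are higher, blue points lower and grey points not past the threshold, diamonds mark the brightest probe set of a gene, and the dashed line is the median of all tested probe sets, 0.02. Aldoc (1.73) and the dimmer Hk1 probe set (1.30) lie far to the right, the 4 Ldhb probe sets (-0.59 to -1.34) to the left.

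Isoenzymes were also set against each other within each array, which removes any shift shared by a whole array. Of the 7 pairs chosen, the pair with Eno1 was left out because no tested probe set names Eno1 alone. A level of 1 probe set cannot be compared with that of another, so what follows is how the log2 ratio of a pair differed between the ages. With 3 arrays against 3, the exact two-sided permutation test cannot give a p below 0.1. The ratio of Aldoc to Aldoa was 4.23-fold higher at 36 weeks. Its log2 value was -3.10, -2.81 and -2.52 at 7 weeks and -0.86, -0.66 and -0.67 at 36 weeks, a shift of 2.08 without overlap. The ratio of Eno2 to Eno3 was 3.62-fold higher, with a shift of 1.85 from -0.46, -0.68 and -0.70 to 1.33, 1.20 and 1.19. The ratios of Pfkp to Pfkl and of Pfkp to the muscle phosphofructokinase Pfkm shifted by 0.76 and 0.68, also without overlap. The ratio of Ldhb to Ldha was lower, by a shift of -0.71, from 1.30, 1.26 and 1.35 to 0.61, 0.65 and 0.52. Each of these 5 reached the smallest exact permutation p of 0.1 (0.12 after Benjamini-Hochberg adjustment over 6 pairs), so none passes the threshold. The ratio of Hk1 to Hk2 shifted by 0.39 with ages that overlapped, at 1.00, 1.49 and 1.02 against 1.56, 1.66 and 1.47 (exact permutation p of 0.2).

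**Figure D3:**
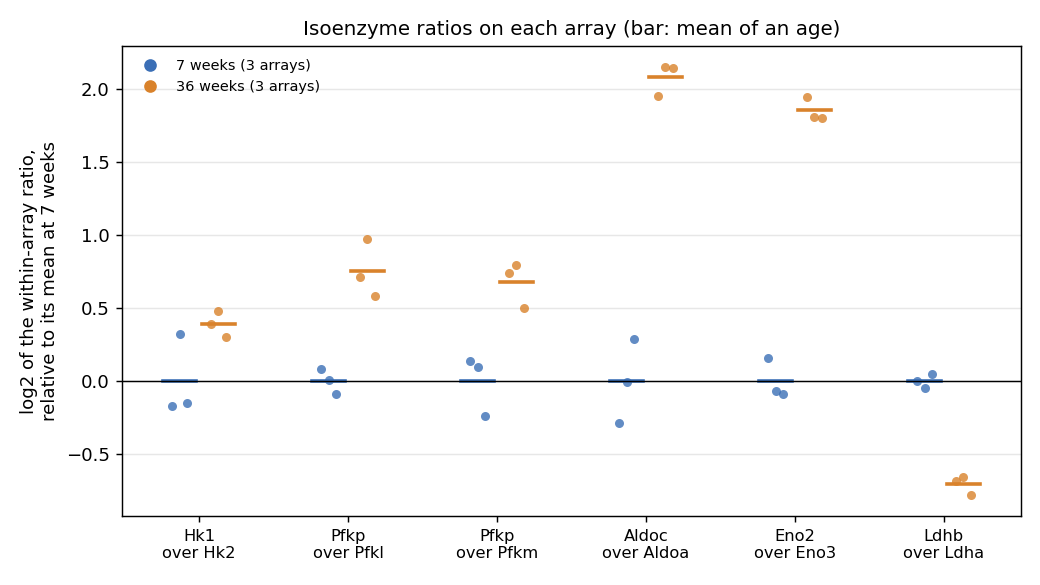
Log2 ratio of 2 isoenzyme genes within each array, drawn relative to its mean at 7 weeks (vertical axis), for 6 pairs (horizontal axis); blue points are arrays of 7 weeks, orange points arrays of 36 weeks, and bars their means. The points of the 2 ages are apart for every pair but Hk1 over Hk2, with the ratio of Aldoc to Aldoa shifted by 2.08 and that of Ldhb to Ldha by -0.71.

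The other genes of the pathway, taken from a list of 20, were named by single-symbol probe sets for 13, of which 10 were tested. Of these 1 was higher, 4 were lower and 5 did not pass, beside 17.5% higher and 17.6% lower among all 8555 genes by their brightest tested probe set. Pgam2, the phosphoglycerate mutase of muscle, had the largest fall of these and fell by 2.94 ± 0.16, and Eno3, the enolase of muscle, by 1.36 ± 0.09, from a mean signal of 11107 to 4280.2. Tpi1, triose phosphate isomerase, for which a single gene serves all tissues, fell by 0.38 ± 0.08 on its brightest probe set. On its other tested probe sets the difference was -0.13 and -0.31, past the threshold on neither (adjusted p of 0.197 and 0.0967 by limma). Pfkm, the phosphofructokinase of muscle, fell by 0.24 ± 0.07, a call kept in only 1 of the 6 fits with 1 array left out (adjusted p of up to 0.0758 by limma). Adpgk, an ADP-dependent glucokinase, rose by 2.69 ± 0.34, from a dim mean signal of 270.7 to 1900.6. Its signals at 36 weeks carried its mean over the 6 arrays past the filter. Pgam2 had a mean signal of 3863.5 at 7 weeks and a dim 463.2 at 36 weeks. There the signals at 7 weeks carried the mean past the filter. Ldha, the lactate dehydrogenase subunit that favours lactate, did not pass and had means of 12755 and 12166, a log2 difference of -0.07 ± 0.08. Pgam1, Bpgm, Gapdhs and Pklr did not pass either, with log2 differences of -0.14, 0.05, 0.15 and 0.32 on their brightest probe sets. A second probe set of Pklr, the pyruvate kinase of liver and red cells, was nearly as bright and passed as higher by 0.56 ± 0.17 (adjusted p of 0.0279 by limma). A second probe set of Bpgm differed by -0.40 without passing.

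Of 9 tested genes for transporters that carry glucose and lactate across the membrane, 3 rose and 2 fell, beside the same 17.5% and 17.6% among all genes. Slc2a3, the high-affinity glucose transporter GLUT3 of neurons and white blood cells, rose 2.92-fold from a mean signal of 4768.9 to 13948, a log2 difference of 1.54 ± 0.07, on a probe set of the _s_at kind. Slc2a1, the glucose transporter GLUT1 of barrier tissue, fell on all 3 of its tested probe sets. The brightest fell by 0.35 ± 0.11, a call lost without replicate 1 or 3 of 7 weeks or replicate 2 or 3 of 36 weeks (adjusted p of up to 0.106 by limma). The next, nearly as bright, fell 2.14-fold by 1.08 ± 0.13, and the dimmest by 0.87 ± 0.13 (adjusted p of 0.000122 and 0.000397 by limma). Slc16a3, the lactate exporter MCT4, rose by 1.64 ± 0.25 from a dim 586.7, while Slc16a1, the carrier MCT1, fell by 0.72 ± 0.15. The signals of Slc16a3 at 36 weeks likewise carried its mean past the filter. Emb, embigin, a partner protein of lactate carriers, rose by 0.42 ± 0.09. The granulocyte list, whose cells carry GLUT3, rose on the same arrays by a median of 3.84 on the log2 scale. Its part in these values was not tested.

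Downstream of pyruvate and beside the main path, further lists were counted. Of 11 tested regulators of glycolysis and of pyruvate entry into mitochondria, 5 fell and 1 rose. The shares among all 8555 genes were 17.6% lower and 17.5% higher. Mpc1, of the mitochondrial pyruvate carrier, fell by 0.54 ± 0.09, Pdha1, a subunit of pyruvate dehydrogenase, by 0.74 ± 0.11 (a dimmer probe set differed by -0.31 without passing) and Pdk1, a kinase that inhibits that enzyme, by 1.37 ± 0.35. Pdk2, another such kinase, rose by 0.59 ± 0.16, a call lost without replicate 2 or 3 of 36 weeks (adjusted p of up to 0.0625 by limma). Without replicate 2 of 7 weeks, or without replicate 1 or 2 of 36 weeks, 3 in place of 5 fell. Of 6 tested genes of the pentose phosphate pathway, the branch that supplies NADPH, 3 rose and 0 fell, beside the same 17.5% and 17.6%. Pgd, phosphogluconate dehydrogenase, rose 3.02-fold (1.57 ± 0.09), Taldo1, transaldolase, by 0.59 ± 0.09 and Pgls, the lactonase, by 0.47 ± 0.10. Of 7 tested glycogen enzymes 1 rose and 2 fell, beside 35.1% called in either direction among all genes. Pygl, the glycogen phosphorylase of liver and white blood cells, rose by 1.91 ± 0.15, whereas Pygm, that of muscle, fell by 0.60 ± 0.09. Of 9 tested hypoxia-induced genes outside glycolysis, 0 rose and 3 fell, a share near that 35.1%. Ddit4, an inhibitor of growth signalling, fell by 1.72 ± 0.11 and Ndrg1 by 0.66 ± 0.08 on its brightest probe set, with 2 of its 5 probe sets not past the test. The fall of Bnip3, a mitochondrial protein, by 0.31 ± 0.10 was kept in 1 of the 6 fits with 1 array left out (adjusted p of up to 0.126 by limma), while Vegfa, the vascular growth factor, differed by 0.24 without passing on its brightest probe set and by 0.65 past the threshold on another (adjusted p of 0.0419 by limma). Of 5 tested gluconeogenic genes 2 rose and 1 fell, beside the same 17.5% and 17.6%. These calls were lost in 4 or 5 of the 6 fits with 1 array left out (adjusted p of up to 0.163 by limma).

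**Figure D4:**
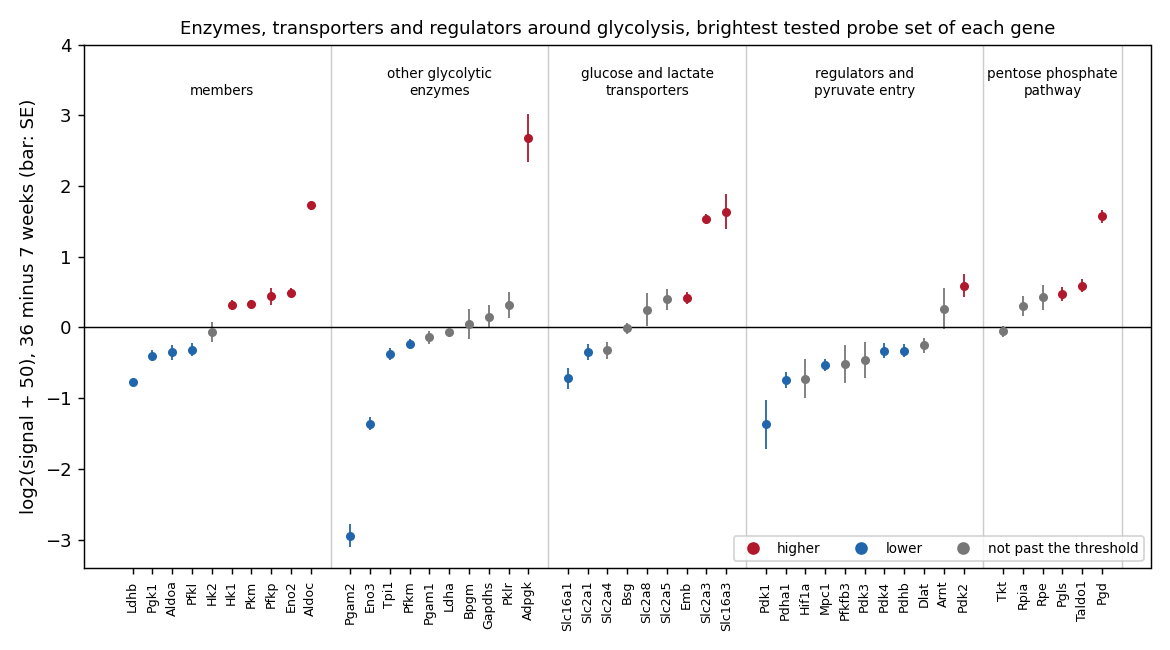
Log2 difference (36 weeks minus 7 weeks) of the brightest tested probe set of each gene with its SE, for the 10 glycolytic genes and 4 lists around them, ordered by value within a list; red is higher, blue lower and grey not past the threshold. Pgam2 (-2.94), Pdk1 (-1.37) and Eno3 (-1.36) are the lowest points, and Adpgk (2.69), Aldoc (1.73), Slc16a3 (1.64), Pgd (1.57) and Slc2a3 (1.54) the highest.

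Likeness of pattern was measured as Pearson's r over the 6 arrays against the other 8554 genes, as a description. Because the arrays fall into 2 ages, a high r mostly says that a gene also differs between the ages. For Aldoc, the nearest genes were the granule proteins Ltf and Lcn2 with r of 0.9998 and 0.9997, and 621 genes had r above 0.95. For Ldhb the nearest were Ociad1 and Eid1, both also lower at 36 weeks, with r of 0.9994 and 0.9992, and 682 genes above 0.95. Eno2 was nearest to Ptpn18 and Slpi (0.9993 and 0.9988). Hk2, which did not follow age, had only 7 genes above 0.95, the nearest being Wasf1 with r of 0.979.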

How the data were processed

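Total RNA of 6 cochlea samples was labelled with biotin and hybridised to Affymetrix arrays, per the labels' protocols. The authors deposited linear intensity values per probe set. The sources used here do not name the summarising software, and the absolute scale is unknown. The trimmed mean was nearly the same on every array (1490.2 to 1493.0), so the values had been scaled, without log or centring of genes. Of 22626 probe sets, 20380 had 1 symbol in the platform annotation, 691 several and 1555 none.

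Values were tested as log2(signal + 50) with limma 3.58.1 in R 4.3.3 (lmFit, eBayes with an intensity trend, two-sided, unpaired). The offset understates changes of dim probe sets, and the number of arrays limits the precision. The test was checked on simulated data. Every probe set of the 10 genes was accounted for. From other lists, at most 3 genes per direction past the threshold with the largest differences were named, and any gene of the pathway list. Vegfa, Pcp2, Aldh1l1, Gfap, Ctsg, Kcne1, Coch, Otos, Mbp, Sox10 and Ltf were named after their values were seen. So were dimmer probe sets of some named genes. The members and lists were chosen with earlier results of these data known, and the limit to bright probe sets was added after seeing the data. Replicate numbers did not pair the samples. Alternatives were other offsets (1 and 16), filters and normalizations, limma without the trend, a replicate block, each array left out, a 1.5-fold minimum over 9 array pairs and, for isoenzyme ratios, all probe sets of a gene.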

Additional observations from a re-analysis of the deposited data

How the results depend on the processing

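Of 300 values of single probe sets under alternative settings, 267 kept their direction and their side of the threshold, 27 lost the call and 1 gained it. Reversals were limited to probe sets that had not passed: Aldoa 1433604_x_at had 0.0466 under quantile normalization and -0.22 to 0.00301 with 1 array left out, Hk2 had -0.23 to 0.0133 and Pfkl 1450269_a_at -0.0121 to 0.18 with 1 array left out. The requirement that each of the 9 comparisons of an array of 36 weeks with one of 7 weeks reach 1.5-fold, a stricter rule by its construction, left 1473 of 4665 calls over the array, and 2 higher and 3 lower probe sets of the glycolytic genes in place of 6 and 10, those of Aldoc, the dimmer Hk1 probe set and 3 of Ldhb. The replicate block left 6 higher and 10 lower and gave 4375 calls over the array. Deviations of same-numbered arrays correlated by -0.01 to 0.05, so the numbers were not taken as pairs. Centring on the array median moved the median of all tested probe sets from 0.02 to -0.08 and the share of higher calls from 48.6% to 36.0%. It ended the call of Pfkp (0.34, adjusted p of 0.0564 by limma) and no other call among the 10 genes. eBayes without the trend ended the calls of Pfkl 1439148_a_at and of Aldoa 1416921_x_at and 1439375_x_at (adjusted p of 0.0651, 0.1004 and 0.0573 by limma). For isoenzyme ratios, quantile normalization gave shifts of 2.32 for Aldoc to Aldoa and -0.63 for Ldhb to Ldha, and the mean of all tested probe sets gave 0.88 for Hk1 to Hk2, 0.54 for Pfkp to Pfkl and -0.86 for Ldhb to Ldha. The cause was not tested. Without a detection call, dim signals such as those of the untested Aldoc and Pfkp probe sets cannot be set against background.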
